A study of Mus musculus with 12 samples.

Results

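Early lineage marker genes were taken as a list of 10 transcription factor genes: *T* (Brachyury), *Mixl1* and *Eomes* for the primitive streak and mesoderm, *Gata4*, *Gata6*, *Sox17* and *Foxa2* for endoderm, *Sox1* and *Pax6* for neural cells, and *Cdx2* for trophoblast. They were found by symbol and made up 10 of the 35580 genes to which transcripts could be summed. The libraries were made from mRNA of mouse R1 embryonic stem cells (ESCs), an established line, and from 3D spheroids made from them. The 6 groups were WT and CIDEA KO (genotype Cidea -/-) cells as ESCs in serum with LIF (0 h), and as spheroids 24 h and 48 h after culture in growth factor-reduced Matrigel with serum and without LIF. Each group had 2 libraries, 12 in all. The KO libraries came from a single clone, so the loss of *Cidea* and other differences of that clone cannot be told apart, and the spheroids differed from the ESCs in serum, LIF and matrix together.

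When pluripotent epiblast cells leave pluripotency, they take up fates of the 3 germ layers. Signals in the posterior epiblast induce *Eomes*, *T* and *Mixl1* at the primitive streak, from which mesoderm and definitive endoderm arise. *Sox17* and *Foxa2* mark definitive endoderm, and *Gata6*, *Gata4* and *Sox17* also mark primitive endoderm, an extraembryonic lineage of the blastocyst. *Sox1* is an early marker of neuroectoderm, and *Pax6* follows in neural progenitors. *Cdx2* is required for the trophectoderm and is used again in the posterior of the gastrulating embryo. ESCs in serum are heterogeneous, and cultures can hold a few cells that express such genes.

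Depth ranged from 28998188 to 38509860 estimated counts per library. A floor of 3 counts, the upper limit that a count of 0 allows, stood at 0.0779 to 0.103 CPM (counts scaled to a library of 1 M) and covers counting error only. *Cidea* had 20 to 117 counts in the WT libraries and 0 in all 6 KO libraries. The pluripotency gene *Pou5f1* (Oct4) had 25851 to 48293 counts in every library. The KO 24 h library of replicate 1 had 14424 genes over the floor, against 16529 to 18128 in the others.

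The markers were low beside pluripotency genes in every group. Among all genes tested, ranked by mean log2 CPM (not corrected for length), *Eomes* stood at the 50.6 percentile and *Sox1* at 44. *Pax6* stood at 38.7, *Gata4* at 38.2 and the others at 1.7 to 27.1. Summed over the 10 genes, the TPM (transcripts per M transcripts, which corrects for transcript length) ranged from 15.3 to 28.1 per library, against 1830 to 4470 for a list of 10 naive and general pluripotency genes. In order of mean TPM over the 12 libraries, *Eomes* was highest at 6.01, followed by *Pax6* at 4.33, *Sox1* at 2.8, *Gata4* at 2.42 and *T* at 1.71. The other 5 were below 1 TPM: *Sox17* at 0.777, *Cdx2* at 0.606, *Gata6* at 0.482, *Mixl1* at 0.359 and *Foxa2* at 0.133. In WT ESCs the first 4 places were close together, with *Sox1* at 3.69 ± 0.285 TPM (SD, n = 2), *Pax6* at 3.65 ± 1.86, *Eomes* at 3.55 ± 0.0476 and *Gata4* at 3.15 ± 0.596, and neighbours in this order differed by less than the larger SD of the pair. In KO ESCs *Sox1* stood first at 5.76 ± 0.286 TPM, above *Eomes* at 3.28 ± 0.453. At 24 h *Pax6* stood first in WT spheroids at 9.74 ± 5.87 TPM, above *Eomes* at 5.12 ± 0.379. In KO spheroids of that time *Eomes* stood first at 6.12 ± 1.84 TPM. At 48 h *Eomes* led in WT spheroids at 9.15 ± 0.441 TPM and in KO spheroids at 8.86 ± 0.635. *Sox1* was then at 0.719 ± 0.173 and 1.21 ± 0.00579 TPM.

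No marker stayed near the floor throughout, taken as 10 or fewer counts in all 12 libraries, but *Foxa2* came close. *Foxa2*, a forkhead pioneer factor of endoderm and midline, was at or under 3 counts in 7 of 12 libraries, at 0 in 6 of them, and above 10 counts only in the KO ESCs. *Mixl1* was at or under 3 counts in 2 libraries, *Gata6* in 1 and *Cdx2* in 1. The remaining 6 genes were above 3 counts in every library. *Eomes* had 185 to 789 counts, *Sox1* 58 to 558, *Gata4* 81 to 209, *Pax6* 72 to 279, *T* 17 to 91 and *Sox17* 4 to 40. All 10 genes passed the filter on low counts, *Foxa2* only through the KO ESCs.

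**Figure D1:**
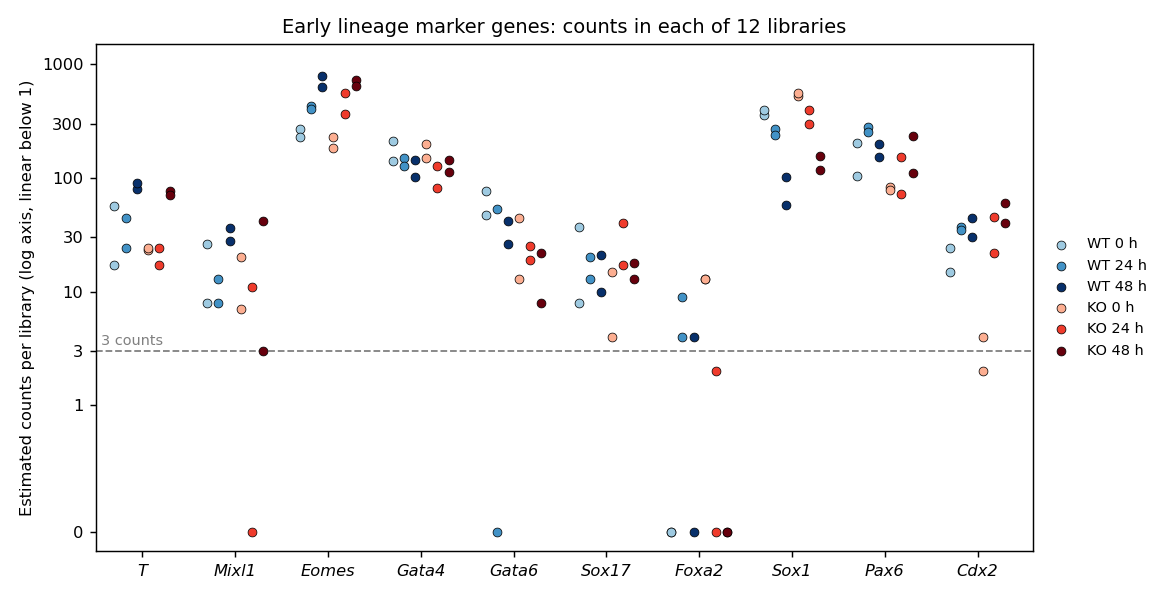
Estimated counts of the 10 genes in each of the 12 libraries, coloured by group; the y axis is logarithmic above 1 and linear below, and the dashed line marks 3 counts. *Foxa2* lies at 0 in 6 libraries, whereas *Eomes* lies between 185 and 789 counts.

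The spread between replicates followed these levels. The biological coefficient of variation estimated by edgeR was 0.167 for *Eomes* and 0.197 for *Sox1*, near the median of 0.184 over the 17424 genes tested. It was 0.313 for *Gata4*, 0.322 for *Pax6*, 0.555 for *T*, 0.627 for *Cdx2*, 0.806 for *Sox17*, 0.855 for *Gata6*, 0.981 for *Mixl1* and 1.08 for *Foxa2*. Only large changes of the last 6 genes could therefore pass a test with 2 libraries per group. In these bulk samples fewer cells of a type and less RNA per cell cannot be told apart.

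*Eomes* rose and *Sox1* fell from ESCs to 48 h spheroids in both genotypes, and *Cdx2* rose in the KO. These were 2 of 10 markers called in WT cells at 48 h against 0 h, beside 23.6% of all genes tested, and 3 of 10 in KO cells, beside 25.0%. The median log2 fold change of the 9 markers other than *Foxa2* was 0.06 in WT cells and 0.7 in KO cells, against 0.02 and 0.01 over all genes. Taken gene by gene, the KO change minus the WT change had a median of only 0.17. For 0 of the 10 was this difference called, beside 0.0402% of all genes. A call is an adjusted p under 0.05 in edgeR's quasi-likelihood test over all genes, and log2 fold changes are of library-size-normalised counts. Both genotypes were compared within themselves, on different libraries, but the spread and normalisation behind their calls were estimated over all 12 libraries together.

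*Eomes* encodes a T-box factor of the primitive streak and of trophoblast. It had 268 and 230 counts in WT ESCs, 424 and 401 at 24 h, and 624 and 789 at 48 h. In KO cells it had 185 and 227 counts at 0 h, 559 and 367 at 24 h, and 717 and 644 at 48 h. No library of a later time was as low as any of an earlier time on the CPM scale, over both genotypes. Such a rise without overlap was seen for 13.1% of all genes tested from 0 h to 24 h and for 9.83% from 24 h to 48 h. Between 0 h and 48 h it rose by a log2 fold change of 1.39 (SE 0.23, adjusted p = 0.00011) in WT and 1.52 (SE 0.23, adjusted p = 3.7e-05) in KO. These changes kept their call when each library in turn was left out and under every other setting tried.

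The steps between were less certain for *Eomes*. From 24 h to 48 h the WT log2 fold change was 0.86 (adjusted p = 0.019), and it lost the call when any of the 4 WT libraries of those times was left out (0.78 to 0.93, adjusted p 0.097 to 0.15). From 0 h to 24 h the KO change was 0.92 (adjusted p = 0.0067), but 0.58 (adjusted p = 0.12) without the KO 24 h library of replicate 1 and 0.77 (adjusted p = 0.11) without the KO 0 h library of replicate 1. The WT change over the first 24 h was 0.53 (adjusted p = 0.13) and the KO change from 24 h to 48 h was 0.61 (adjusted p = 0.095). With the genotypes averaged, a contrast added after the data were seen, the 2 steps were called: 0.72 (SE 0.16, adjusted p = 0.0017) from 0 h to 24 h and 0.73 (SE 0.16, adjusted p = 0.0022) from 24 h to 48 h. The second lost its call with limma on log2 (TPM + 0.1) (adjusted p = 0.055). Limma on log2 TPM and transcript lengths as offsets ended the WT call from 24 h to 48 h (adjusted p up to 0.17). These settings and the fit of only the groups compared ended the KO call from 0 h to 24 h (adjusted p up to 0.098).

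*Sox1* encodes a SoxB1 factor of the early neural plate. It had 359 and 391 counts in WT ESCs, 269 and 240 at 24 h, and 58 and 101 at 48 h. In KO cells it had 526 and 558 counts at 0 h, 394 and 296 at 24 h, and 155 and 118 at 48 h. Libraries at 48 h lay below all those of the other times in CPM, as for 17.3% of all genes tested against 0 h and 9.8% against 24 h. Between 0 h and 48 h its log2 fold change amounted to -2.37 (SE 0.27, adjusted p = 1.9e-06) in WT and -2.2 (SE 0.27, adjusted p = 2.9e-06) in KO, and both kept their call with each library left out and under every other setting tried. The fall from 24 h to 48 h was called in WT (-1.61, adjusted p = 0.0006) and KO (-1.3, adjusted p = 0.0024), and both calls were lost with limma on log2 TPM (adjusted p up to 0.071 in WT and 0.087 in KO), the KO call also with only the groups compared (adjusted p = 0.055).

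*Sox1* also fell in KO cells between 0 h and 24 h (-0.9, adjusted p = 0.017). That call was lost without the KO 0 h library of replicate 1 (adjusted p = 0.083) or 2 (0.15) and without the KO 24 h library of replicate 2 (0.075). The WT change over the same time was -0.76 (adjusted p = 0.053). *Sox1* has a single annotated transcript with 1 exon, and the whole of it (chromosome 8, 12395295 to 12400126 on the + strand of GRCm38) lies within the non-coding gene *Sox1ot* on the same strand, which was not analysed here. Reads from the 2 genes cannot be told apart over this stretch.

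*Cdx2*, a caudal-type homeobox gene, was near the floor in KO ESCs. It had 4 and 2 counts there, 45 and 22 in KO spheroids at 24 h, and 60 and 40 at 48 h. WT ESCs had 15 and 24 counts, and WT spheroids had 37 and 35 at 24 h and 30 and 44 at 48 h. In the KO the log2 fold change at 48 h against 0 h was 3.78 (SE 1.2, adjusted p = 0.023). It kept its direction but lost the call when any of the 4 KO libraries of these times was left out (3.38 to 4.32, adjusted p 0.079 to 0.22). On the log2 TPM scale it was 2.67 with a pseudocount of 0.1 and 0.89 with 1, both called, since KO ESCs were close to 0. The WT change was 0.79 (95% interval -1.37 to 2.95, adjusted p = 0.67). The difference between the 2 changes, the interaction term, was 2.99 (95% interval -0.19 to 6.18, adjusted p = 0.89).

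With the genotypes averaged, *Cdx2* at 48 h was 2.29 (SE 0.78, adjusted p = 0.026) above 0 h on the log2 scale, a call that leaving out any of the 8 libraries of those times ended (2.09 to 2.56, adjusted p up to 0.13). The averaged contrasts called 3 markers at 48 h against 0 h (36.1% of all genes), 2 at 24 h against 0 h (28.1%) and 2 at 48 h against 24 h (18.1%). The members of each were *Eomes* and *Sox1*, joined at 48 h against 0 h by *Cdx2*. Within genotypes, 2 markers were called at 48 h against 24 h in WT (8.14% of all genes) and 1 in KO (9.94%). At 24 h against 0 h, 2 were called in KO (18.6%) and 0 in WT (15.0%) by edgeR, where 2 had an unadjusted p under 0.05 and DESeq2 called 1.

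*T* encodes Brachyury, the T-box factor of the streak and notochord. It had 17 and 57 counts in WT ESCs, 44 and 24 at 24 h, and 79 and 91 at 48 h. Its KO counts were 23 and 24 at 0 h, 17 and 24 at 24 h, and 76 and 70 at 48 h. All 4 libraries of 48 h, at 1.974 to 2.699 CPM, were above all 8 earlier ones, at 0.5023 to 1.875 CPM. Of all genes, 18.9% lay higher without overlap at 48 h than at 0 h, and 9.83% higher than at 24 h. On the TPM scale the times overlapped, since the second WT ESC library had 2.581 TPM against 2.105 and 2.194 in 2 of the 48 h libraries. No change of *T* passed the edgeR test: with the genotypes averaged, 48 h was 1.64 (SE 0.6, adjusted p = 0.066) above 24 h and 1.26 (SE 0.59, adjusted p = 0.11) above 0 h on the log2 scale. Other settings did call *T*: DESeq2 and the filter of at least 10 counts in every library in both of these contrasts, that filter also in KO at 48 h against 24 h, and the fits of only the groups compared at 48 h against 0 h in KO and over both genotypes. Without a KO 24 h library *T* was called at 48 h against 0 h over both genotypes, and without replicate 2 also against 24 h.

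*Mixl1*, a homeobox gene of the streak, had 8 and 26 counts in WT ESCs, 8 and 13 at 24 h, and 28 and 36 at 48 h. Its KO counts were 20 and 7 at 0 h, 0 and 11 at 24 h, and 3 and 42 at 48 h. The KO pair at 48 h spanned almost the whole range of the gene. At 48 h against 0 h the log2 fold change was 0.78 (95% interval -2.67 to 4.23) in WT and 0.7 (-2.77 to 4.16) in KO, so neither a rise nor a fall could be seen at this depth and replication.

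**Figure D2:**
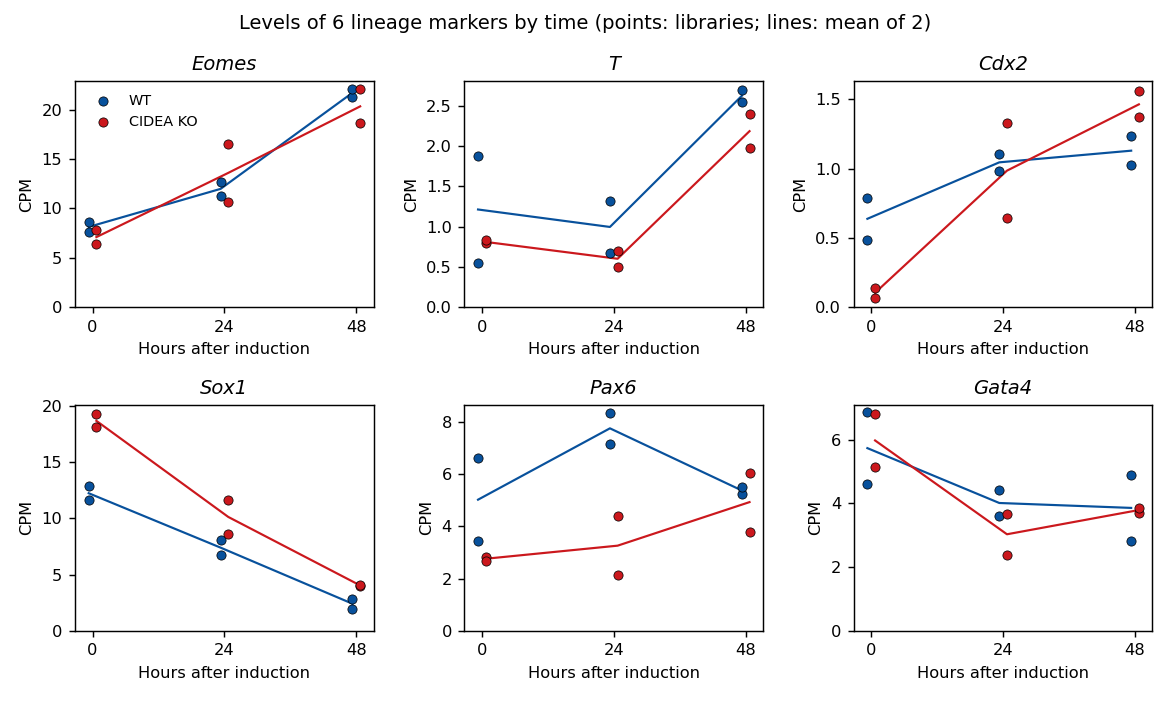
CPM of 6 of the genes against hours in culture as spheroids, with WT in blue and CIDEA KO in red shifted slightly to either side; points are libraries and lines join the means of 2. *Eomes* climbs and *Sox1* falls in both genotypes, and *T* at 48 h lies above all earlier libraries in CPM, though not in TPM.

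The bases just upstream of the annotated starts of *Eomes*, *T* and *Cdx2* are shown because *Eomes* and *Cdx2* had called rises at 48 h and *T* lay highest in CPM at 48 h. The sequences are from RefSeq (GRCm38.p6), 5′ to 3′ on the strand of the gene, and capitals mark CG dinucleotides. They cover chr9:118477939-118478188 on the + strand, chr17:8434173-8434422 on the + strand and chr5:147307271-147307499 on the - strand, and hold 8, 14 and 11 CG dinucleotides.
Eomes: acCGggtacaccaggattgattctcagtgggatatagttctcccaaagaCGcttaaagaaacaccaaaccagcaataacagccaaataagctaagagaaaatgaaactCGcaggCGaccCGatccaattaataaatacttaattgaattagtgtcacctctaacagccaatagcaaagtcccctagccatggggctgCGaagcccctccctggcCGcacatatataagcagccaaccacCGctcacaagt
T: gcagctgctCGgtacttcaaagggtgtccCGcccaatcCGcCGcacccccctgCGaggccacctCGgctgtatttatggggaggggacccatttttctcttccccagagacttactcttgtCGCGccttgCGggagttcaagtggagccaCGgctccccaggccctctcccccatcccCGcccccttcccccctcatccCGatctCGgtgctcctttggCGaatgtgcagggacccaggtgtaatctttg
Cdx2: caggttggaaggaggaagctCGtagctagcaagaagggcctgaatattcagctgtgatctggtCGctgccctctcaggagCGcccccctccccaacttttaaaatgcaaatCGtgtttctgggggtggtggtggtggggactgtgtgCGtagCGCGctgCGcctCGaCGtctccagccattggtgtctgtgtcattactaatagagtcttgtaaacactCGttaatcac
In the full 300-base windows (250 bases before to 50 after a start), CG counts were 10 for *Eomes*, 17 for *T* and 18 for *Cdx2*, against a median of 7 over 32851 windows of all genes. Windows were found for 6 of the 10 markers, 9 windows in all, and the highest CG count was 37 for *Sox1*, at the 94.4 percentile. On both strands, the TCF/LEF motif CTTTGAT, the T-box motif TCACACCT, the GATA motif AGATAA and TATAAA had no match in the windows of *Eomes*, *T*, *Cdx2*, *Sox1* and *Pax6*. Of the 3 windows of *Foxa2*, 1 held a match to each of the TCF/LEF, GATA and TATA motifs. The 4 motifs occur, in the order named, in 3.73%, 1.28%, 11.2% and 13.6% of all windows. A match or its absence in such a window is a description of these letters only.

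*Gata4*, a zinc finger factor of endoderm and heart, had 142 and 209 counts in WT ESCs, 148 and 128 at 24 h, and 143 and 101 at 48 h. KO cells had 198 and 149 counts at 0 h, 81 and 126 at 24 h, and 143 and 113 at 48 h. All 4 libraries of 24 h were below all 4 of 0 h in CPM, as for 2084 of the 17424 genes tested, while those of 48 h overlapped with both. Averaged over genotypes, 24 h differed from 0 h by a log2 fold change of -0.77 (SE 0.29, adjusted p = 0.054), which did not pass the edgeR test. On the TPM scale these times overlapped, with 3.286 TPM in a WT 24 h library and 2.733 and 2.68 in 2 ESC libraries. DESeq2, the filter of at least 10 counts in every library, and the fits without WT 0 h replicate 1 or KO 24 h replicate 2 called *Gata4* in this contrast.

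*Gata6*, which acts early in primitive endoderm, had 47 and 76 counts in WT ESCs, 0 and 53 at 24 h, and 26 and 42 at 48 h. KO cells had 13 and 44 counts at 0 h, 19 and 25 at 24 h, and 8 and 22 at 48 h. The highest mean was that of WT ESCs, yet the log2 fold change at 48 h against 0 h, -0.99 in WT (95% interval -3.78 to 1.8) and -1.04 in KO (-3.88 to 1.81), did not pass the test.

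*Sox17*, an HMG-box factor of both endoderm types, had 8 and 37 counts in WT ESCs, 13 and 20 at 24 h, and 10 and 21 at 48 h. The KO libraries had 4 and 15 counts at 0 h, 40 and 17 at 24 h, and 13 and 18 at 48 h. The groups overlapped throughout in CPM. In TPM the KO 24 h libraries, at 2.544 and 0.802, lay above those of WT 24 h, WT 48 h and KO 48 h. The highest library of those 3 groups was at 0.7984 TPM. The 40 counts of the KO 24 h library of replicate 1 were all assigned to 1 transcript, Sox17-204, which had 0 to 11 counts in the other 11 libraries. *Gata6* and *Sox17* each overlap a gene on the opposite strand that was not analysed here, as do *Eomes* and *Pax6*.

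*Foxa2* had 13 and 13 counts in KO ESCs and 0 and 0 in WT ESCs. It had 9 and 4 counts in WT spheroids at 24 h, 0 and 4 at 48 h, and in KO spheroids 0 and 2 at 24 h and 0 and 0 at 48 h. The mean CPM of KO ESCs was 4.58-fold the floor of 3 counts in WT ESCs and 4.95-fold that in KO spheroids at 48 h. These ratios allow no counting error in KO ESCs, the only group through which *Foxa2* passed the filter, so they are descriptions only. The genotype difference at 0 h did not pass the edgeR test (adjusted p = 0.51), nor did the KO change at 48 h against 0 h (adjusted p = 0.15), which limma on log2 TPM and the fit of only the groups compared called. Limma on log2 (TPM + 1) also called the KO change at 24 h against 0 h, which edgeR did not (adjusted p = 0.38). With 45 counts over 12 libraries in all, this gene gives little basis for an order of the groups.

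*Pax6*, a paired-box factor of neural progenitors and eye, moved apart from *Sox1*. It had 204 and 105 counts in WT ESCs, 279 and 255 at 24 h, and 153 and 197 at 48 h. In KO cells it had 82 and 78 counts at 0 h, 72 and 151 at 24 h, and 233 and 111 at 48 h. In CPM, KO libraries were below WT libraries at 0 h and 24 h and overlapped with them at 48 h. In TPM they already overlapped at 0 h, at 2.103 and 3.005 in KO and 4.968 and 2.332 in WT. No change with time passed the test: at 48 h against 0 h the log2 fold change was 0.06 (95% interval -0.81 to 0.94) in WT and 0.85 (-0.05 to 1.74) in KO.

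Counts and TPM gave different pictures of *Pax6*. The WT 24 h libraries had 279 and 255 counts but 13.9 and 5.59 TPM. Of the 26 transcripts of *Pax6* in the tables, 14 were above 3 counts in at least 1 library and 11 were at 0 in all. The first of these libraries had 76 counts assigned to Pax6-210, which is 983 bases long, and the second 37. Transcript Pax6-207 of 2559 bases had 0 counts in the first and 118 in the second. The same exchange occurred between replicates at WT 48 h, where Pax6-204 had 138 and 7 counts and Pax6-207 had 0 and 131, although the TPM of the gene was similar there, with a mean of 3.23 ± 0.226. Levels of single *Pax6* transcripts are therefore not compared between groups.

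**Figure D3:**
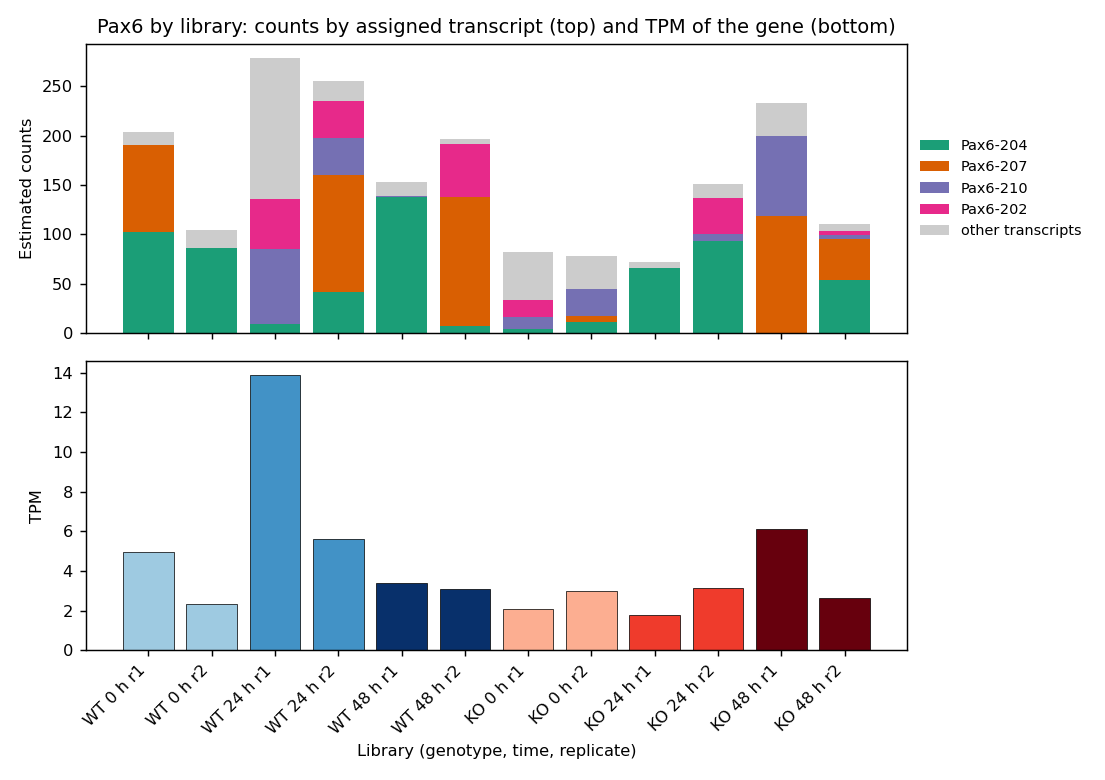
*Pax6* in each library: estimated counts stacked by the transcript to which they were assigned (top) and TPM of the gene (bottom), with r1 and r2 for the replicates. WT 24 h r1 stands at 13.9 TPM and r2 at 5.59, with 279 and 255 counts.

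Between the genotypes, edgeR called 0 of 10 markers at 0 h (beside 1.26% of all genes), 0 at 24 h (beside 1.46%) and 0 at 48 h (beside 0.671%), and DESeq2 also called 0. At an unadjusted p under 0.05 there were 2 at 0 h (*Sox1* and *Cdx2*), 1 at 24 h (*Pax6*) and 1 at 48 h (*Sox1*). The interaction terms, which ask whether the change from 0 h differed between genotypes, called 0 at 24 h (beside 0.0115% of all genes) and 0 at 48 h (beside 0.0402%), and 0 by DESeq2. At an unadjusted p under 0.05 there was 1 in each, *Foxa2*, which passed the filter only through the KO ESCs where it was high, so nothing is read from it. KO and WT libraries did not overlap in CPM for 5, 3 and 4 of the 10 markers at 0 h, 24 h and 48 h, beside 43.5%, 38.9% and 41.0% of all genes tested.

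*Sox1* was higher in KO than in WT in every library pair at each time. The log2 difference was 0.6 (SE 0.25, adjusted p = 0.41) at 0 h, 0.46 (SE 0.26, adjusted p = 0.49) at 24 h and 0.77 (SE 0.27, adjusted p = 0.36) at 48 h. Averaged over the times, a contrast added after the data were seen, it was 0.61 (SE 0.15, adjusted p = 0.022), the only 1 of the 10 markers called, beside 5.03% of all genes. This call was lost in 7 of the 12 fits that left out a library: WT 0 h replicate 1, WT 24 h replicate 2, WT 48 h replicate 1, and both replicates of KO 0 h and of KO 48 h (0.53 to 0.63, adjusted p 0.053 to 0.092). It was also lost with transcript lengths as offsets (adjusted p = 0.1) and on the log2 TPM scale (0.27 and 0.2). The difference kept its sign in all of these.

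For *Pax6* the difference ran the other way, at -0.88 (95% interval -1.77 to 0.02, adjusted p = 0.51) at 0 h, -1.24 (-2.13 to -0.35, adjusted p = 0.19) at 24 h and -0.09 (-0.97 to 0.78) at 48 h, and at -0.74 (adjusted p = 0.094) over the times. Over the times *Pax6* was called with at least 10 counts in every library as the filter and without KO 24 h replicate 2, and at 24 h without that library. *Cdx2* was at -2.59 (95% interval -5 to -0.19, adjusted p = 0.45) at 0 h, -0.08 at 24 h and 0.4 at 48 h. *Eomes* had the narrowest intervals, -0.68 to 0.27 at 0 h, -0.28 to 0.65 at 24 h and -0.52 to 0.39 at 48 h. For *T*, *Mixl1*, *Gata6* and *Sox17* each interval reached past 1 in both directions, so differences of that size either way were not detectable here.

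**Figure D4:**
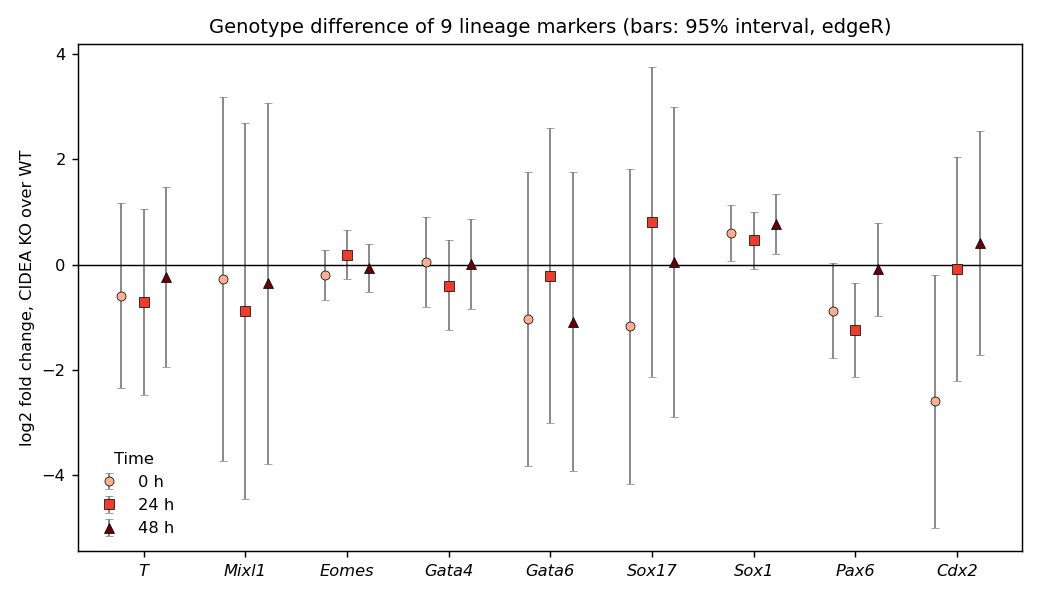
log2 fold change of CIDEA KO over WT for 9 genes (without *Foxa2*, which is at 0 in whole groups) at 0 h, 24 h and 48 h; bars are 95% intervals from edgeR. The points of *Sox1* lie above 0 at each time, with an interval at 24 h (-0.08 to 0.99) that includes 0. The *Eomes* intervals all include 0, and no marker was called at any time.

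Other genes of each lineage were read from lists of known markers, with 4 genes standing in 2 lists. Of 16 streak and mesoderm genes, 15 were tested and 2 rose in WT cells from 0 h to 48 h, when 23.6% of all genes were called. They were *Fgf8*, a growth factor of the streak, from 0.174 ± 0.0349 to 4.14 ± 2.08 TPM, and *Wnt3*, a ligand needed to form it, from 0.112 ± 0.159 to 2.68 ± 0.442 TPM. In KO cells, where 25.0% of all genes were called, neither passed the test, with log2 fold changes of 2.92 (adjusted p = 0.11) for *Fgf8* and 4.34 (adjusted p = 0.05, just above the threshold) for *Wnt3*. The interaction of *Wnt3* was -0.21 (SE 1.9, adjusted p = 1), and levels at 48 h were 2.13 ± 0.613 and 2.71 ± 0.461 TPM. The one called gene in KO, *Snai1*, a repressor of E-cadherin, fell by 1.25 on the log2 scale (adjusted p = 0.023). The list's median log2 fold change was 0.98 in WT and 0.65 in KO, against 0.02 and 0.01 over all genes. Only 5 of the 16 genes were above 3 counts in every library, so these medians include genes with few counts. The *Fgf8* call was lost without either WT 0 h library or the WT 48 h library of replicate 1 (4.26 to 5.02, adjusted p 0.078 to 0.12). The *Wnt3* call (adjusted p = 0.045) was lost in 9 of the 12 fits that left out a library (3.55 to 4.72, adjusted p 0.067 to 0.12), and held without WT 0 h replicate 2, where the fitted value of 10.49 is no measure of size because the other WT ESC library was at 0, and without either KO 24 h library. That of *Snai1* was lost without any of the 4 KO libraries of these times (-1.42 to -1.08, adjusted p 0.062 to 0.21), with no filter on low counts (adjusted p = 0.092) and with transcript lengths as offsets (adjusted p = 0.056).

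Of 12 definitive endoderm genes, 11 were tested and only *Prdm1* (Blimp1, a repressor also used in germ cells) was called, lower at 48 h in both genotypes (-1.08 in WT and -0.96 in KO). Of all genes, 23.6% were called in WT and 25.0% in KO. The KO call of *Prdm1* was lost under 1 of 9 other settings, with its direction kept. Of 16 primitive endoderm genes, 14 were tested, of which 2 rose and 5 fell in WT (beside 23.6% of all genes called) and 2 rose and 4 fell in KO (beside 25.0%). The laminin chain gene *Lama1* fell from 21.5 ± 1.57 to 1.52 ± 0.283 TPM in WT, whereas *Lamb1* rose from 19 ± 1.16 to 38.1 ± 0.168 TPM and *Dab2*, an endocytic adaptor, rose by a log2 fold change of 1.81. *Sparc* and *Col4a1*, both of the basement membrane, fell in both genotypes, but the *Sparc* call in KO was lost without replicate 1 of KO 0 h (-0.28, adjusted p = 0.08) or of KO 48 h (-0.29, adjusted p = 0.068). The *Col4a1* call was lost with limma on log2 TPM (adjusted p up to 0.069 in WT and 0.11 in KO) and in KO with transcript lengths as offsets (-0.9, adjusted p = 0.084). The medians of the 2 lists were -0.78 and -1.11 in WT and -0.79 and -1.07 in KO.

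Of 16 neural genes, 12 were tested, with 2 rising and 1 falling in WT and 4 rising and 1 falling in KO, beside 23.6% and 25.0% of all genes called. *Sox11* rose from 1.31 ± 0.122 to 8.68 ± 0.304 TPM in WT and from 1.32 ± 0.0144 to 7.47 ± 0.35 TPM in KO. *Sox3*, the SoxB1 relative of *Sox1*, rose as well (log2 fold change 1.83 in WT, adjusted p = 0.003, and 1.47 in KO, adjusted p = 0.012), so that it and *Sox1* changed in opposite directions. The *Sox3* call was lost without WT 48 h replicate 2 (1.34, adjusted p = 0.078) in WT, and without replicate 2 of KO 0 h (1.08, adjusted p = 0.19) or KO 48 h (1.21, adjusted p = 0.13) in KO. In KO it was also lost with limma on log2 TPM (adjusted p up to 0.066). *Tubb3*, a neuronal tubulin, fell (-1.17 and -1.5). Of 15 trophoblast genes, 13 were tested, with 2 rising and 2 falling in each genotype, beside the same 23.6% and 25.0%: the keratin genes *Krt8* and *Krt18* rose, and the transcription factor genes *Tead4* (-3.13 and -3.14) and *Tfap2c* (-2.19 and -1.72) fell. In WT the call of *Krt8* was lost without WT 0 h replicate 1 (0.66, adjusted p = 0.061) or WT 48 h replicate 2 (0.56, adjusted p = 0.12), and that of *Krt18* without WT 0 h replicate 1 (1.44, adjusted p = 0.067). The medians of the neural and trophoblast lists were 1.45 and 0.72 in WT and 0.96 and 0.66 in KO. The summed TPM of the neural list fell all the same from 0 h to 48 h, from 154 and 140 to 94.5 and 88.8 in WT. In KO it fell from 160 and 145 to 73.3 and 76.6. *Tubb3* alone had 135 ± 8.87 TPM in WT ESCs. Only 4 of the 16 neural and 7 of the 15 trophoblast genes were above 3 counts in every library. These medians thus include genes with few counts.

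Between the genotypes, 61 of 71 distinct genes of these 5 lists were tested, and 2, 1 and 1 were called at 0 h, 24 h and 48 h, beside 1.26%, 1.46% and 0.671% of all genes. *Prdm1* was lower in the KO at 0 h (-1.02, adjusted p = 0.007), 24 h (-1.02, adjusted p = 0.0087) and 48 h (-0.9, adjusted p = 0.035). Its level was 11.4 ± 0.134 TPM in WT and 5.1 ± 0.172 in KO ESCs, and 5.04 ± 0.393 against 2.58 ± 0.477 TPM at 48 h. At 0 h the *Prdm1* call was lost without any of the 4 libraries of that time (-1.07 to -0.95, adjusted p 0.061 to 0.15), and at 24 h without WT 24 h replicate 2 (-0.88, adjusted p = 0.11). At 48 h it was lost without any of the 8 libraries of 0 h and 48 h (-1.02 to -0.78, adjusted p 0.052 to 0.36). With limma on log2 TPM and with transcript lengths as offsets the *Prdm1* call was lost at each time (adjusted p up to 0.25, 0.31 and 0.49), and at 24 h also with only the groups compared (adjusted p = 0.24). It kept its sign throughout. *Lamb1* was called lower in the KO at 0 h (-0.39, adjusted p = 0.029), a call lost without any library of 0 h or WT 24 h or without WT 48 h replicate 1 (-0.46 to -0.31, adjusted p 0.051 to 0.58), and with limma, transcript lengths as offsets or only the groups compared (-0.39 to -0.26, adjusted p 0.11 to 0.61).

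As a check of the cells, all 10 naive and general pluripotency genes fell and all 7 primed genes rose from 0 h to 48 h in each genotype. Of all genes, 23.6% were called in WT and 25.0% in KO. In KO against WT, 2 of the naive list were called higher at 0 h and 2 at 24 h. Of the primed list, 2 and 3 were called lower, beside 1.26% and 1.46% of all genes. At 48 h 0 of either list were called (beside 0.671%). The interactions called 1 primed gene lower at 24 h (beside 0.0115%) and 2 higher at 48 h (beside 0.0402%). Of 10 fibroblast genes, which would mark feeder cells, *Postn* was at 0 in every library and *Lum* had at most 2 counts. Another 4 were above 3 counts in every library: *Thy1* had 180 to 672 counts, *Fbn1* 102 to 295, *Pdgfrb* 86 to 152 and *Col1a1* 47 to 165. The list's summed level was 9.21 to 26.6 TPM, with 0 of 6 tested genes called at 48 h against 0 h in either genotype, beside 23.6% and 25.0% of all genes. In KO 1 was called lower at 24 h against 0 h (beside 18.6%). With the genotypes averaged, 1 was called lower at 24 h against 0 h (beside 28.1%). There 1 was called higher at 48 h against 24 h (beside 18.1%) and 1 against 0 h (beside 36.1%). Over the times 1 was called lower in KO than in WT (beside 5.03%). Transcripts of such genes were thus present, and their source was not tested. The paper's cell culture methods describe ESCs on gelatine-coated plates and name no feeder cells.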

How the data were processed

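Libraries were made with a stranded mRNA kit. Per the submitters' processing notes, the authors used Trimmomatic 0.33 on the reads and kallisto 0.43.1 to assign them to transcripts; strand settings are not given in the sources used here. The deposited tables give estimated counts, not normalised, and TPM, scaled for effective length and depth by the authors, for 115270 transcripts. Of these, 113580 (98.5%) matched GENCODE M21 (GRCm38) and were summed to genes; the others held 0.659% to 0.709% of the counts. kallisto divides reads between similar transcripts, so values of single transcripts are uncertain. Sums were rounded and fitted in edgeR 4.0.16 (R 4.3.3; TMM, filterByExpr, robust quasi-likelihood, 1 mean for each of 6 groups, 12 libraries, 17424 genes), with Benjamini-Hochberg adjustment over all genes and a threshold of 0.05. The scripts were tested on simulated counts. Alternatives used DESeq2 1.42.0 and limma 3.58.1 on log2 (TPM + 0.1) or (TPM + 1). Libraries of a group differed beyond counting noise (chi-square per degree of freedom 11.2 to 32.7); where separate cultures are not stated in the labels, p-values measure only the spread between these samples. All 10 markers are described; of each other list, the 3 genes of highest mean TPM and up to 2 called genes of largest change in WT at 48 h against 0 h and between genotypes are named. The members and lists were chosen with earlier results of these data known. Replicate numbers were not used to pair libraries, except as a block among the alternatives.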

Additional observations from a re-analysis of the deposited data

How the results depend on the processing

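The number of the 10 markers called moved by over 1.5 times under some settings, and no change of a marker that was called reversed under any setting. With DESeq2, 1 marker was called for WT at 24 h against 0 h and 4 for both genotypes averaged at 24 h against 0 h. With at least 10 counts in all libraries as the filter, 1 was called for WT at 24 h against 0 h, 2 for KO at 48 h against 24 h and 2 for KO against WT over all times; fewer genes were tested there. With limma on log2 (TPM + 0.1), 0 were called for WT and 0 for KO at 48 h against 24 h. It called 1 for KO at 24 h against 0 h (*Cdx2*), 1 for both genotypes at 48 h against 24 h and 0 for KO against WT over all times. With log2 (TPM + 1), 0 were called for WT and 0 for KO at 48 h against 24 h and 0 for KO against WT over all times. For KO at 24 h against 0 h it called 1, *Foxa2*, which passed the filter only through the KO ESCs. The main fit had called *Eomes* and *Sox1* in that contrast, so neither limma fit kept a main call there. With transcript lengths as offsets, 1 was called for WT at 48 h against 24 h, 0 for KO at 24 h against 0 h and 0 for KO against WT over all times. With only the groups compared, 1 was called for KO at 24 h against 0 h, 0 for KO at 48 h against 24 h, 5 for KO at 48 h against 0 h and 5 for both genotypes at 48 h against 0 h. The cause of these moves was not tested beyond the fewer genes or samples. Leaving out 1 library at a time gave 0 to 1 markers for WT at 24 h against 0 h, 1 to 2 for WT and for KO at 48 h against 24 h, 2 to 2 for WT and 2 to 3 for KO at 48 h against 0 h, and 0 to 3 for KO at 24 h against 0 h. It gave 2 to 4, 2 to 4 and 2 to 5 for the averaged changes at 24 h against 0 h, 48 h against 24 h and 48 h against 0 h, 0 to 2 for KO against WT over all times, 0 to 1 at 24 h, and 0 at 0 h, at 48 h and for both interactions; a lone library left in a group was assumed to vary like the others. A replicate block gave 0, 2 and 2 markers for the WT changes (24 h against 0 h, 48 h against 24 h, 48 h against 0 h), as without it. It gave 2, 1 and 3 for the KO changes and 0 for each genotype difference at 1 time, also as without it. Over all genes tested, same-numbered libraries did not deviate together (correlations -0.05 to 0.05). With 2 libraries per group this cannot exclude that they shared a culture or day. Low counts went with a wide spread between replicates for *Foxa2*, *Mixl1*, *Gata6*, *Sox17*, *Cdx2* and *T*, for which a difference could be missed. Whether depth or spread limited them more was not tested.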

Other observations

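Genes with profiles most like those of the called markers were found by the root mean square difference of centred log2 CPM over the 6 group means, as a description of likeness over groups that share libraries. Those nearest to *Eomes* were *Sez6l2* (0.063), *Ptbp2* (0.09) and *Evpl* (0.1), and 15.7% of all genes tested were within 0.5 of it. Those nearest to *Sox1* were *Ttc28* (0.14), *Necab1* (0.18) and *Epha4* (0.18), with 1.12% of genes within 0.5. Those nearest to *Cdx2* were *Fxyd5* (0.23), *Plekhg4* (0.3) and *Thbs3* (0.32), with 0.396% within 0.5.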
